A study of Mus musculus with 20 samples.

Results

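Tff3, the gene of trefoil factor 3, and 8 marker genes of the bile duct epithelium (Sox9, Krt7, Krt19, Epcam, Prom1, Pkhd1, Cftr and Spp1) were followed in liver RNA of 20 male mice, and the question was whether Tff3 moves with the duct markers between strains. The 9 genes were taken by their symbol among the non-control probes of the arrays, which gave 12 probes of 55642 kept. Of the 9 genes, 8 passed the filter on dim signal and were tested among 20622 genes, and Epcam was not. Tff3 differed by up to 7.27 on the log2 scale between strain means, while no duct marker differed by more than 2.85. The strain with the highest Tff3 was the lowest for Sox9 and for the main Pkhd1 probe. The strain next to it, which did not differ from it in Tff3 beyond the spread, had the highest mean for both. For neither gene did that strain differ from the next one beyond the spread.

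The liver came from 5 inbred strains with 4 mice each: NZO (NZO/HiBomDife), which the series calls obese and diabetes-susceptible, DBA (DBA/2J) and C3H (C3HeB/FeJ), called susceptible, and B6 (C57BL/6) and 129/Ola (129P2/OlaHsd), called lean and resistant. All mice were male, 6 weeks old and fed a high fat diet with 45% fat, and no group on another diet was compared. Total RNA with an integrity number above 8 was hybridised to Agilent mouse arrays with 1 dye, 1 array per mouse. The labels number the animals, each array was taken as a mouse of its own, and p-values therefore rest on how much mice of a strain vary. Levels are log2 of the processed spot signal minus the 75th percentile of the array, so a level of 0 lies at that percentile. They compare 1 probe between mice and not different probes with each other.

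Arrays of NZO, DBA and B6 were read with one version of the extraction software and arrays of C3H and 129/Ola with another. C3H was scanned on 1 day and 129/Ola on another, so strain and scan day cannot be told apart for C3H against 129/Ola, and strain and array series cannot be told apart for any pair that crosses the series. Between 40.0 and 59.1% of probes were well above background per array, lowest in 129/Ola (40.0 to 43.4%), and the dimmest signal called well above background was -4.45 to -3.10 on the other arrays and -3.36 to -2.56 in 129/Ola. The 16 genes of a hepatocyte marker list, Alb and Apoa1 among them, were well above background on all 20 arrays, and their mean level was 8.13 to 8.79 per mouse. Taking the percentile over those probes alone that every array read well above background shifts every difference between C3H and 129/Ola by 0.16 and every difference between NZO and B6 by -0.08.

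Cholangiocytes are the epithelial cells that line the bile ducts. They arise from the same fetal progenitors as hepatocytes, under Notch signalling from the portal mesenchyme, with Sox9 as the earliest known transcription factor of the duct. Mature cholangiocytes carry the keratins of simple epithelia, a primary cilium that holds the polycystic kidney disease proteins, and the chloride channel encoded by Cftr, which drives fluid into bile. Trefoil factors are small secreted peptides of mucous epithelia. Tff3 is best known from goblet cells of the intestine and is also made by bile duct epithelium in humans. Ducts are a small part of the liver, and in RNA of whole tissue fewer cells of a type and less RNA per cell cannot be told apart.

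The array measures each gene through probes of a fixed sequence, and 4 of them are shown. They read the keratin pair, the marker that alone was higher in NZO and DBA against B6, and the marker that could not be tested. Positions are those of the array files on mouse build mm9, and letters run 5' to 3' as on the array. The Krt7 probe lies at chr15:101253718-101253777 on the plus strand, the Krt19 probe at chr11:100002392-100002451 on the minus strand and the Cftr probe at chr6:18270974-18271033 on the plus strand. The Epcam probe lies at chr17:88048972-88049800 on the plus strand. It spans 829 bases of genome with 60 bases of probe, so it lies across an intron.
Krt7: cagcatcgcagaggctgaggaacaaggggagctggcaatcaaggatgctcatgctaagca
Krt19: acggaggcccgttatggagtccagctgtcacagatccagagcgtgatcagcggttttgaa
Cftr: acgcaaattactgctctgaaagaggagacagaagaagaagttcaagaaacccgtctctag
Epcam: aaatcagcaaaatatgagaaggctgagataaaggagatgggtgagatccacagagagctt

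Tff3 had 1 probe, at mm9 chr17:31262279-31262338 on the minus strand, which each of the 20 arrays read well above background. Mice are given by ascending animal number. Tff3 had levels of 0.52, 1.80, 0.55 and 0.78 in NZO mice, 4.73, 3.10, 3.51 and 3.07 in DBA mice and 6.64, 5.51, 6.22 and 6.81 in C3H mice. In B6 mice the levels were 5.43, 5.03, 6.11 and 6.51, and in 129/Ola mice they were -1.52, -0.93, -1.85 and 0.42. NZO, DBA, B6 and 129/Ola did not overlap with each other, and C3H overlapped with B6 alone. The means were 0.91 ± 0.60 in NZO, 3.60 ± 0.78 in DBA, 6.29 ± 0.58 in C3H, 5.77 ± 0.66 in B6 and -0.97 ± 1.00 in 129/Ola (SD, n = 4 each).

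**Figure D1:**
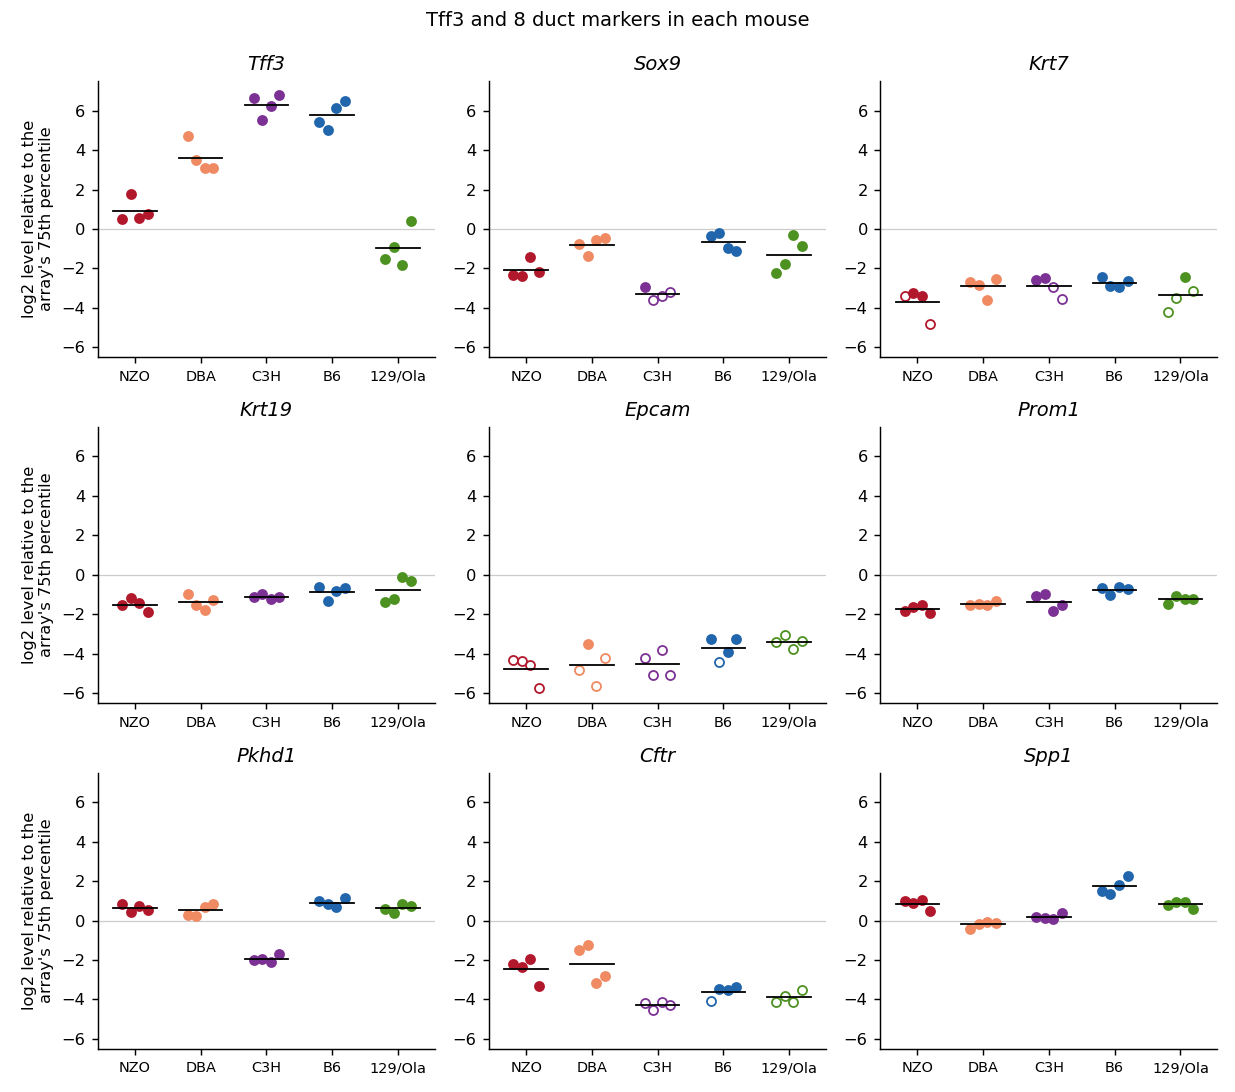
Log2 level of Tff3 and 8 duct markers relative to the 75th percentile of each array, 1 panel per gene and 1 point per mouse, with 4 mice per strain and a bar at the strain mean; filled points are well above background and open points are not. Tff3 spans strain means of -0.97 to 6.29, while every duct marker stays within a range of 2.85.

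Tff3 was 29.0-fold lower in NZO than in B6, 4.49-fold lower in DBA than in B6 and 6.45-fold lower in NZO than in DBA. It was 154-fold higher in C3H than in 129/Ola. On the log2 scale these differences were -4.86 ± 0.49 (adjusted p = 1.14e-06), -2.17 ± 0.49 (adjusted p = 0.00462), -2.69 ± 0.49 (adjusted p = 0.000631) and 7.27 ± 0.49 (adjusted p = 6.24e-09) (SE, n = 4 per strain; limma, adjusted by Benjamini-Hochberg over 20622 genes). The 2 lean and resistant strains lay far apart, with 129/Ola -6.74 ± 0.49 (adjusted p = 1.3e-08) relative to B6 across the array series. By descending mean the order was C3H, B6, DBA, NZO and 129/Ola. C3H and B6 did not differ beyond their spread (0.52 ± 0.49, adjusted p = 0.429), and each other neighbour did, NZO over 129/Ola by 1.88 ± 0.49 (adjusted p = 0.00409). The range of strain means of Tff3, 7.27, ranked 26 of 20622 genes, where the median gene had a range of 0.81.

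Scan days could be compared within NZO, DBA and B6. The difference of Tff3 in NZO from B6 was -5.15 on day 1 (3 and 2 mice) and -3.97 on day 2 (1 and 2 mice). That of DBA from B6 was -2.26 on day 1 (1 and 2 mice) and -1.04 on day 2 (1 and 2 mice), the smallest of these differences. That of NZO from DBA was -2.89 on day 1 (3 and 1 mice) and -2.93 on day 2 (1 mouse each). All 6 values are below 0.

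The other trefoil genes gave different values. Tff2, which encodes the trefoil peptide of gastric mucus neck cells, is the neighbour of Tff3 with a probe at chr17:31279256-31280080, and it was well above background on 11 arrays. Its means were -3.63 ± 0.69 in NZO, -2.71 ± 0.37 in DBA, -4.08 ± 0.86 in C3H, -3.61 ± 0.75 in B6 and -2.44 ± 0.66 in 129/Ola. Tff2 was at least 2.15-fold lower in C3H than in 129/Ola (adjusted p = 0.0100, limma), with no C3H array and 2 of 4 129/Ola arrays well above background, where Tff3 was higher. For this bound the dim group is set at the lowest signal called well above background on each array, or at the probe's own signal where that is higher. Tff2 did not pass the threshold in NZO or DBA against B6 (-0.02 ± 0.46 (adjusted p = 0.988) and 0.90 ± 0.46 (adjusted p = 0.231)). Tff1 was well above background on at most 2 of 20 arrays with either of its probes and was not tested.

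Sox9, the transcription factor of early duct cells that is also made by some hepatocytes next to the portal vein, is read by 10 spots of 1 probe per array, of which 8 to 10 were usable. Sox9 levels were -2.35, -2.40, -1.43 and -2.19 in NZO mice, -0.77, -0.54, -1.39 and -0.45 in DBA mice and -2.96, -3.60, -3.39 and -3.18 in C3H mice, -0.33, -0.21, -0.94 and -1.09 in B6 mice and -2.25, -1.75, -0.33 and -0.86 in 129/Ola mice. NZO lay below DBA and B6 without overlap, and C3H lay below all other strains with 1 of 4 arrays well above background. Sox9 fell by 1.45 ± 0.35 in NZO against B6 (SE; adjusted p = 0.00736, limma). Its difference was -1.30 ± 0.35 (adjusted p = 0.0145) in NZO against DBA and -1.99 ± 0.35 (adjusted p = 0.000389) in C3H against 129/Ola. DBA and B6 differed by -0.14 ± 0.35 (adjusted p = 0.862) and overlapped. With scan day as a block, the difference of NZO and DBA was -1.01 (adjusted p = 0.104, with 0.00583 to 0.256 over all alternatives), and within days it was -0.60 on day 1 and -1.63 on day 2.

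The keratins Krt7 and Krt19, intermediate filaments of duct cells that hepatocytes lack, passed the threshold in none of the 4 comparisons. Krt19 levels were -1.54, -1.18, -1.41 and -1.91 in NZO mice, -0.95, -1.77, -1.54 and -1.26 in DBA mice and -1.14, -0.97, -1.25 and -1.15 in C3H mice, -0.64, -1.35, -0.80 and -0.69 in B6 mice and -1.36, -1.24, -0.13 and -0.31 in 129/Ola mice. All strains overlapped with at least 1 other, and 129/Ola spanned the widest range. The difference of Krt19 was -0.64 ± 0.26 (adjusted p = 0.103) in NZO and -0.51 ± 0.26 (adjusted p = 0.234) in DBA against B6. It was -0.13 ± 0.26 (adjusted p = 0.806) in NZO against DBA and -0.37 ± 0.26 (adjusted p = 0.275) in C3H against 129/Ola. Krt7 means were -3.72 ± 0.73 in NZO, -2.91 ± 0.48 in DBA, -2.90 ± 0.48 in C3H, -2.74 ± 0.23 in B6 and -3.32 ± 0.75 in 129/Ola, with 2, 4, 2, 4 and 1 arrays well above background. NZO mice did not overlap with B6 mice for Krt7, yet the difference of -0.98 ± 0.38 (adjusted p = 0.0854) missed the threshold. It was -0.62 without NZO 11, -0.04 under normexp and -1.38 with the animal number as a block, the ends of the range over all alternatives being the last 2. By descending mean the order of Krt7 was B6, C3H, DBA, 129/Ola and NZO, and no neighbours in it differed beyond their spread.

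The surface proteins gave one untested and one tested gene. Epcam, the adhesion molecule used to sort duct cells, was well above background on 1 DBA array and 3 B6 arrays and on no array of NZO, C3H or 129/Ola. Its mean was at least 1.20-fold lower in NZO than in B6, with means of -4.75 ± 0.67 in NZO and -3.72 ± 0.58 in B6. Mice of the 2 strains overlapped, and this difference was not tested. The mean in 129/Ola, -3.39 ± 0.28, lies below what those dimmer arrays call well above background. Prom1, which encodes the membrane protein CD133 of progenitor and duct cells, was read by 1 bright probe and by 1 probe that was well above background on no array.

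Prom1 levels on the bright probe were -1.85, -1.61, -1.55 and -1.91 in NZO mice, -1.53, -1.53, -1.46 and -1.33 in DBA mice and -1.08, -0.97, -1.86 and -1.53 in C3H mice, -0.68, -1.03, -0.60 and -0.71 in B6 mice and -1.47, -1.09, -1.24 and -1.21 in 129/Ola mice. B6 lay above NZO, DBA and 129/Ola without overlap, and the other strains lay close together. Prom1 fell by 0.98 ± 0.16 in NZO against B6 (adjusted p = 0.000286) and by 0.71 ± 0.16 in DBA against B6 (adjusted p = 0.00521, limma). NZO against DBA gave -0.27 ± 0.16 (adjusted p = 0.301), and C3H against 129/Ola gave -0.11 ± 0.16 (adjusted p = 0.631).

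Pkhd1 encodes fibrocystin, the protein of the primary cilium that is mutated in recessive polycystic kidney disease with ductal plate malformation. Its main probe, at chr1:20047861-20047920, gave levels of 0.83, 0.46, 0.73 and 0.53 in NZO mice, 0.27, 0.67, 0.25 and 0.86 in DBA mice and -2.02, -1.93, -2.10 and -1.70 in C3H mice, 1.00, 0.82, 0.67 and 1.15 in B6 mice and 0.58, 0.39, 0.83 and 0.75 in 129/Ola mice. C3H stood apart from the other 16 mice, which shared a range of 0.25 to 1.15. Pkhd1 was 5.96-fold lower in C3H than in 129/Ola (-2.58 ± 0.15, adjusted p = 8.44e-10). A second probe at chr1:20596586-20596645, well above background on 9 arrays, did not show that difference (0.50, adjusted p over probes = 0.352), and it was well above background on 1 C3H array and no 129/Ola array. On the main probe NZO against B6, DBA against B6 and NZO against DBA gave -0.28 ± 0.15 (adjusted p = 0.241), -0.40 ± 0.15 (adjusted p = 0.0901) and 0.12 ± 0.15 (adjusted p = 0.656). The second probe passed in NZO against B6 with -1.47 ± 0.41 and no overlap (adjusted p over probes = 0.0168), with 2 NZO arrays and 4 B6 arrays well above background, and it gave -1.08 ± 0.41 in DBA against B6 (0.0902). The low Pkhd1 of C3H thus rests on 1 probe, and so does the call in NZO. The DBA difference of the main probe passed in some other settings, among them scan day as a block (-0.65, adjusted p = 0.0194), with adjusted p of up to 0.262.

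Cftr, the chloride channel of the duct cell's apical membrane, was higher in NZO and DBA, where Prom1 and Spp1 were lower than in B6. Cftr levels were -2.19, -2.33, -1.93 and -3.31 in NZO mice, -1.47, -3.19, -1.24 and -2.83 in DBA mice and -4.18, -4.51, -4.12 and -4.28 in C3H mice, -4.08, -3.46, -3.54 and -3.36 in B6 mice and -4.11, -3.80, -4.14 and -3.51 in 129/Ola mice. NZO and DBA lay above the other strains without overlap, and no C3H or 129/Ola array was well above background. Cftr was 1.17 ± 0.37 (adjusted p = 0.0349) in NZO relative to B6 and 1.43 ± 0.37 (adjusted p = 0.0117) in DBA relative to B6. The NZO call was lost without NZO 3 (1.09, adjusted p = 0.0909), NZO 7 (1.13, 0.0704), NZO 9 (1.00, 0.0964), B6 9 (1.01, 0.107), B6 10 (1.22, 0.0568) or B6 11 (1.19, 0.0600). It was also lost with the percentile over only those probes that every array read well above background (1.09, adjusted p = 0.0588), without the filter on dim probes (1.17, 0.0583) and in a fit of the arrays read with the older software alone (1.17, 0.103). Over all alternatives the adjusted p lay between 0.0104 and 0.334. The DBA call was lost under normexp (0.38, adjusted p = 0.0548) and in that fit (1.43, 0.0539), with a range of 0.00186 to 0.126. The DBA value was 2.25 with scan day as a block, 2.17 on day 1 and 2.34 on day 2, with 1 DBA mouse on each of these days. DBA 8 and DBA 15, at -3.19 and -2.83, were scanned on day 3 with no other strain and do not enter the values within days. A further probe that only the newer files name Cftr was well above background on 1 array, DBA 15.

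Spp1 encodes osteopontin, a secreted matrix protein of duct cells and also of macrophages. Spp1 levels were 1.01, 0.91, 1.03 and 0.49 in NZO mice, -0.44, -0.08, -0.15 and -0.10 in DBA mice and 0.19, 0.11, 0.09 and 0.37 in C3H mice, 1.51, 1.34, 1.83 and 2.28 in B6 mice and 0.81, 0.93, 0.94 and 0.60 in 129/Ola mice. B6 lay above all other strains and DBA below all others, each without overlap. Spp1 fell by 0.88 ± 0.17 in NZO against B6 (adjusted p = 0.00126), by 1.93 ± 0.17 in DBA against B6 (adjusted p = 2.2e-07) and by 0.62 ± 0.17 in C3H against 129/Ola (adjusted p = 0.00942), and it was 1.05 ± 0.17 (adjusted p = 0.000195) in NZO relative to DBA. The C3H call was lost with the slide as a random block (-0.64, adjusted p = 0.127) and under normexp (-0.37, 0.0543), with adjusted p between 0.00258 and 0.208 over all alternatives.

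Genes of macrophages, which also make Spp1, were set beside it. Of 11 tested genes of resident Kupffer cells, 6 were lower and 0 higher in NZO against B6, 6 lower and 0 higher in DBA against B6, 0 lower and 1 higher in NZO against DBA, and 8 lower and 1 higher in C3H against 129/Ola. These are 54.5%, 54.5%, 9.09% and 81.8% of the 11, beside 18.3%, 15.3%, 18.0% and 37.9% of all genes. Folr2, a folate receptor of tissue macrophages, fell by 4.93 ± 0.17 in DBA against B6 and fell by 4.30 ± 0.17 in C3H against 129/Ola, and it was 5.16 ± 0.17 higher in NZO than in DBA. Clec4f, a lectin of Kupffer cells, fell by 1.12 ± 0.14 in NZO and fell by 0.76 ± 0.14 in DBA against B6. Their mean level was 3.11 to 3.37 in NZO mice, 2.72 to 2.91 in DBA, 2.14 to 3.06 in C3H, 3.59 to 4.20 in B6 and 3.04 to 3.49 in 129/Ola. The median difference of the 11 was -0.59 in NZO and -0.67 in DBA against B6, -0.06 in NZO against DBA and -0.69 in C3H against 129/Ola, beside 0.05, 0.01, 0.04 and -0.08 for all genes. Of 10 tested genes of lipid-associated macrophages, 3 were lower and 1 higher in NZO against B6, 5 lower and 1 higher in DBA against B6, 0 lower and 1 higher in NZO against DBA, and 0 lower and 2 higher in C3H against 129/Ola. In C3H Spp1 was lower while none of these 10 was, and the 2 called are 20% of them against 37.9% of all genes. In the other 3 comparisons the called shares were 40%, 60% and 10%, against 18.3%, 15.3% and 18.0%. Trem2, a lipid receptor of these cells, fell by 1.52 ± 0.36 in NZO (adjusted p = 0.00599) and by 2.01 ± 0.36 in DBA (adjusted p = 0.000558, limma) against B6. Their mean level per mouse was 0.08 to 0.87 in NZO, 0.28 to 0.59 in DBA, 0.65 to 1.07 in C3H, 0.67 to 1.03 in B6 and -0.06 to 0.64 in 129/Ola. Gpnmb and Mmp12 of that list were not bright enough to be tested. The part of macrophages in the Spp1 result was not tested.

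Counted over the 7 tested duct markers, 3 were lower (Sox9, Prom1 and Spp1), 1 higher (Cftr) and 3 not past the threshold in NZO against B6, where 8.57% of all genes were called lower and 9.72% higher. For DBA against B6, 2 were lower (Prom1 and Spp1), 1 higher (Cftr) and 4 not past, against 8.08% lower and 7.27% higher of all genes. In NZO against DBA, 1 was lower (Sox9), 1 higher (Spp1) and 5 not past, against 8.27% and 9.76%. In C3H against 129/Ola, 3 were lower (Sox9, Pkhd1 and Spp1), 0 higher and 4 not past, against 22.6% lower and 15.4% higher. In either direction 4 of 7, 3 of 7, 2 of 7 and 3 of 7 markers passed in these comparisons, against 18.3%, 15.3%, 18.0% and 37.9% of all genes. In NZO against B6 every NZO mouse lay below every B6 mouse for 4 of the 7 markers and above for 1, against 9.79% and 12.6% of all genes. In DBA against B6 the DBA mice lay wholly below for 2 and above for 1, against 10.7% and 9.00%. The NZO mice lay wholly below the DBA mice for 2 and above for 1, against 8.29% and 11.7%, and the C3H mice wholly below the 129/Ola mice for 3 and above for 0, against 24.2% and 16.1%. The median difference of the 7 markers was -0.88, -0.40, -0.26 and -0.39, beside 0.05, 0.01, 0.04 and -0.08 for all genes tested.

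No duct marker passed in the same direction in all 4 comparisons. Spp1 passed in all 4, lower in 3 and higher in NZO against DBA. The split of all calls depends on the scaling. In NZO against B6 it was 2004 higher and 1767 lower, and 1560 higher and 2454 lower with the percentile over only those probes that every array read well above background. In C3H against 129/Ola it was 3170 higher and 4651 lower, and 4552 higher and 2579 lower under that scaling. Background correction with normexp, which adds an offset, made the differences of dim markers smaller. Under it Sox9 fell by 0.58, 0.50 and 0.59 in NZO against B6, NZO against DBA and C3H against 129/Ola, Pkhd1 fell by 1.18 in C3H, and Prom1 fell by 0.41 in NZO and fell by 0.35 in DBA against B6.

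For some of the genes the difference of susceptible from resistant strains was not the same in both array series. The mean of NZO and DBA minus B6 was set against C3H minus 129/Ola, and the difference between these 2 differences passed for 5 of the 8 tested genes (limma), against 31.3% of all genes. Cftr is 1 of the 5, and since no C3H or 129/Ola array read it well above background, its value largely restates NZO and DBA against B6. The difference was -10.8 ± 0.65 for Tff3 (adjusted p = 1.69e-09), lower in NZO and DBA than in B6 and higher in C3H than in 129/Ola. It was 2.24 ± 0.20 for Pkhd1 (adjusted p = 2.57e-07) and 1.68 ± 0.49 for Cftr (adjusted p = 0.0149). The Pkhd1 value is that of the main probe and rests on its low level in C3H. On the second Pkhd1 probe NZO and DBA against B6 gave -1.47 and -1.08, and C3H against 129/Ola gave 0.50, in the opposite directions. Of these the NZO difference alone passed. Prom1 and Spp1 gave -0.73 ± 0.22 (adjusted p = 0.0163) and -0.78 ± 0.23 (adjusted p = 0.0152). Spp1 was called lower in NZO and DBA against B6 and also in C3H against 129/Ola, so its size differed and not its direction. Prom1 was called lower in NZO and DBA against B6 and did not pass in C3H against 129/Ola. Sox9, Krt7 and Krt19 did not pass (1.19, -1.01 and -0.21, with adjusted p of 0.0618, 0.137 and 0.683). Strain, software version and scan day all change between the series, and their parts cannot be told apart.

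**Figure D2:**
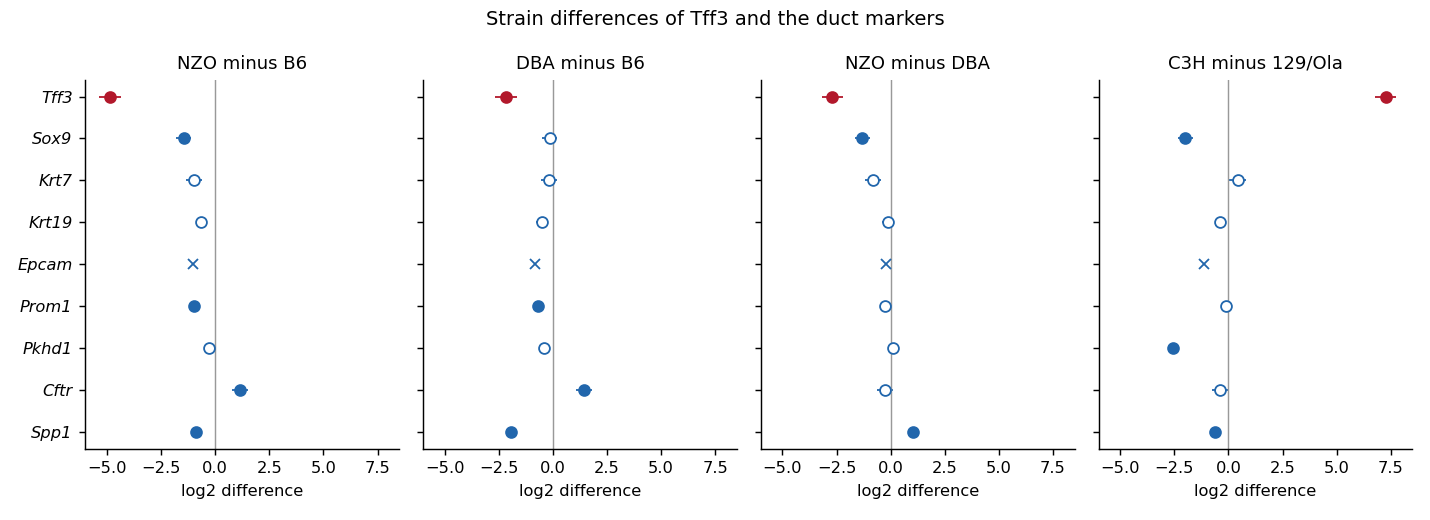
Log2 difference between strains for Tff3 (red) and the 8 duct markers (blue), 1 panel per comparison, with the standard error as a bar; filled points passed an adjusted p of 0.05 in limma, open points did not, and the cross marks Epcam, which was not tested. Tff3 lies at -4.86, -2.17, -2.69 and 7.27, outside the range of the 8 markers in each panel.

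Whether Tff3 moved apart from each marker was tested inside the array, where the difference of 2 probes on the same array does not depend on how arrays are scaled. An exact permutation test of 4 against 4 mice compared Tff3 minus the marker between strains, two-sided, with 70 groupings and a smallest possible p of 0.0286, adjusted by Benjamini-Hochberg over 32 tests. A marker that no array of either strain, or of one of them, read well above background is not measured there, so Tff3 minus that marker largely restates the change of Tff3. This holds for Epcam in NZO and for Epcam and Cftr in C3H and 129/Ola, which are left out of the counts. In NZO against B6 Tff3 fell further than each of the 7 other markers, with differences of -3.41 relative to Sox9 and -6.02 relative to Cftr at the ends of the range. Krt7 was well above background on 2 of those NZO arrays. The dimmest signal called well above background was -4.08 to -3.76 in NZO. Sox9 (-0.64 in B6), Prom1 (-0.75), Krt19 (-0.87), Krt7 (-2.74) and Cftr (-3.61) could thus not show as large a fall as Tff3. Of these, all but Krt7 stayed well above background on all 4 NZO arrays, and Cftr was higher in NZO. In C3H against 129/Ola Tff3 rose relative to each of the 6 other markers, and among those bright on all 8 arrays the differences were 7.63 relative to Krt19, 7.37 relative to Prom1, 7.89 relative to Spp1 and 9.84 relative to the main Pkhd1 probe. The other markers were Krt7, well above background on 2 C3H arrays and 1 129/Ola array, and Sox9, on 1 C3H array and 4 129/Ola arrays. These tests had no overlap between the strains (exact p = 0.0286, adjusted p = 0.0366).

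The other comparisons separated Tff3 from fewer markers. In DBA against B6, Tff3 fell further than 3 of the 8 markers: -1.99 ± 0.52 relative to Krt7, -1.66 ± 0.38 relative to Krt19 and -3.59 ± 0.47 relative to Cftr (SE, n = 4 per strain; exact permutation, adjusted p = 0.0366). Epcam, well above background on 1 of those DBA arrays, was among the other 5. From B6 to DBA, and from DBA to NZO, Krt7 and Cftr were too dim to show as large a fall as Tff3. Relative to Spp1, which itself was lower in DBA, the difference was -0.24 ± 0.49 (exact p = 0.714, adjusted p = 0.714). In NZO against DBA, Tff3 fell further than 5 of the 7 markers other than Epcam, with a difference of up to -3.74, relative to Spp1. Relative to Sox9 the difference was -1.39 ± 0.66 (exact p = 0.114, adjusted p = 0.122) and relative to Krt7 -1.88 ± 0.56 (exact p = 0.0571, adjusted p = 0.0677). Single mice decided some of these calls. Those against Krt7 and Krt19 in DBA were lost without B6 11 or B6 15, that against Cftr in NZO against DBA without NZO 3 or NZO 9 (exact permutation, adjusted p = 0.0703), and that against Pkhd1 without DBA 5 (adjusted p = 0.0631). Other calls were gained. Under normexp, Sox9 (-2.06) and Prom1 (-1.80) passed in DBA against B6, and Sox9 (-1.94) and Krt7 (-2.43) in NZO against DBA (exact permutation, adjusted p = 0.0308). Krt7 passed in NZO against DBA without NZO 11 (-2.20). Prom1 (-1.86) and Pkhd1 (-2.22) passed in DBA against B6 without DBA 5.

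**Figure D3:**
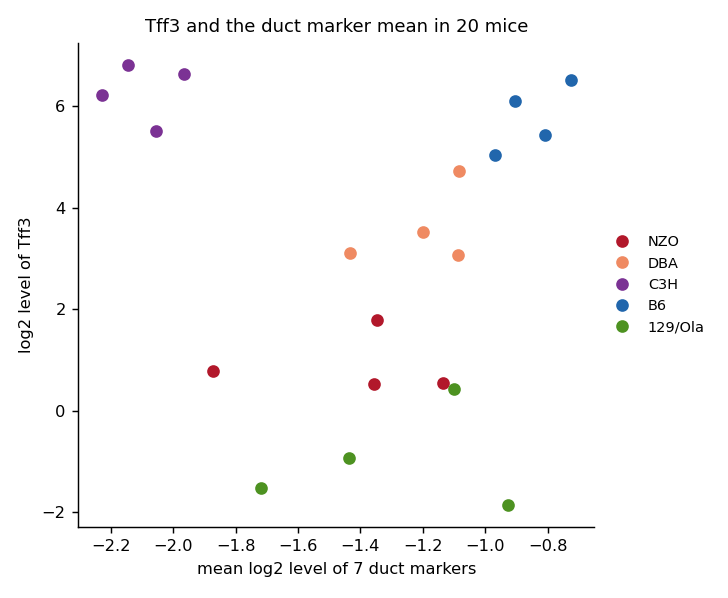
Log2 level of Tff3 against the mean log2 level of the 7 tested duct markers, 1 point per mouse, 4 mice per strain. C3H has the lowest duct marker means (-2.23 to -1.96) with Tff3 at 5.51 to 6.81, and B6 the highest (-0.97 to -0.73) with Tff3 at 5.03 to 6.51.

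The mean of the 7 tested duct markers lay at -1.43 ± 0.31 in NZO, -1.20 ± 0.16 in DBA, -2.10 ± 0.11 in C3H, -0.85 ± 0.11 in B6 and -1.30 ± 0.35 in 129/Ola (SD, n = 4 each). C3H had the lowest mean of the markers and B6 the highest. The C3H mean includes Pkhd1, low on 1 probe, Sox9, with 1 of 4 arrays well above background, and Cftr, with none. For each of Krt19, Prom1 and Spp1, bright on all arrays, DBA had a lower mean than C3H. None of these differences passed (adjusted p = 0.468, 0.659 and 0.0921, limma), and the pair crosses the array series. The main Pkhd1 probe, also bright on all arrays, went the other way, with -2.45 in C3H relative to DBA (adjusted p = 2.38e-09, limma). NZO, DBA and B6 stood in the same order for Tff3 and for the marker mean. In the marker mean, however, NZO mice (-1.87 to -1.14) and DBA mice (-1.43 to -1.08) overlapped, and it was not tested between strains. Sox9, Krt7, Krt19 and Prom1 kept that order of means, and Spp1, Cftr and the main Pkhd1 probe did not. Over the 20 mice, the correlation of Tff3 with single markers was highest for Krt7 (r = 0.46) and lowest for Pkhd1 (r = -0.50), a description that rests on 5 strain means.

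Mice of 1 strain share their genome, so the deviation of each mouse from its strain mean shows what moves together within strains. Mice of NZO, DBA and B6 were spread over slides and scan days, and 129/Ola mice over slides. Effects of the array that genes share can thus enter these deviations. The permutation treats mice of a strain as exchangeable, and the part of slide and scan day was not tested. Across 36 pairs of the 9 genes, 1 pair passed a permutation test within strains (100000 permutations, two-sided, adjusted by Benjamini-Hochberg). Krt7 and Krt19 deviated together with r = 0.76 (permutation p = 0.00022, adjusted p = 0.00792) and rho = 0.72 (permutation p = 0.00122, adjusted p = 0.0439) over 20 mice. Without the 2 mice farthest from the median r was 0.68, and r was 0.75 among the 12 mice of NZO, DBA and B6 and 0.78 among the 8 mice of C3H and 129/Ola. The sign was the same in both array series. Krt7 was well above background on 13 of the 20 arrays, of which 2 were C3H and 1 was 129/Ola. Most Krt7 values behind the r of 0.78 were thus not well above background. Over all 28 pairs of duct markers r lay between -0.40 and 0.76 with a median of 0.23, and 23 were above 0.

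Tff3 passed with none of the 8 duct markers, with r between -0.22 (Pkhd1) and 0.46 (Cftr). For Cftr, r = 0.46 had permutation p = 0.0582 and adjusted p = 0.393, rho was 0.50 (permutation p = 0.0387, adjusted p = 0.316), and r was 0.32 without the 2 farthest mice. It was 0.41 among the 12 mice of NZO, DBA and B6 and 0.91 among the 8 mice of C3H and 129/Ola, on whose arrays Cftr was not well above background. For Krt19, r was 0.39 (permutation p = 0.226, adjusted p = 0.542) and rho 0.31 (permutation p = 0.298, adjusted p = 0.699). It was 0.14 without the 2 farthest mice and 0.68 without 129/Ola 7 alone. Array series moved it as well, with r = 0.68 in NZO, DBA and B6 and 0.12 in C3H and 129/Ola.

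**Figure D4:**
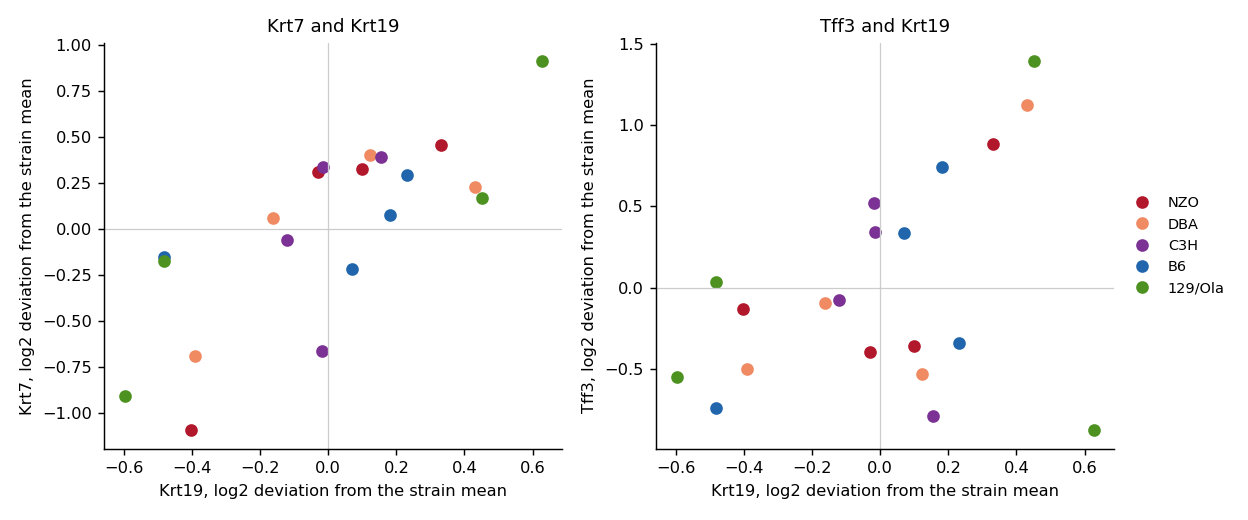
Deviation of each of 20 mice from its strain mean on the log2 scale, Krt7 against Krt19 on the left and Tff3 against Krt19 on the right, coloured by strain. The left points follow a rising line (r = 0.76), and the right points spread around one (r = 0.39), with 129/Ola 7 at the lower right.

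Strain accounted for 95.0% of the variance of Tff3 between mice and for 97.0% of that of Pkhd1, 90.4% of Spp1, 81.9% of Sox9, 74.7% of Cftr and 71.4% of Prom1. For Krt19 and Krt7 it was 42.6% and 34.6%, below the 63.0% of the median gene. An F test over the 5 strains (limma) passed for 6 of the 8 tested genes, against 71.2% of all genes, and not for Krt19 (adjusted p = 0.0622) or Krt7 (adjusted p = 0.134). Within NZO, DBA and B6 it passed for Tff3, Sox9, Prom1 and Spp1, 4 of 8, against 23.8% of all genes. Within strains Tff3 had an SD of 0.74, Krt7 of 0.57 and Krt19 of 0.38, where the median gene had 0.25.

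Genes were also ranked by how like their level was to that of Tff3, Sox9 or Epcam over the 20 mice. Tff3 and the duct markers were left out of this ranking, so no duct marker could appear in it. The genes most like Tff3 were F830016B08Rik, Ccl25, Rprd1b, Wdr31 and Atp4a, with r of 0.92, 0.90, 0.90, 0.90 and 0.88. Taken separately, the duct marker with the highest r with Tff3 was Krt7, at 0.46. Ccl25, a chemokine of gut and thymus, had means of 0.68 in NZO, 1.19 in DBA, 1.47 in C3H, 1.29 in B6 and 0.09 in 129/Ola. Atp4a, the alpha subunit of the gastric proton pump, had means of -2.95 in NZO, -3.15 in DBA, -0.24 in C3H, -1.84 in B6 and -5.02 in 129/Ola. For Sox9 the 5 genes were Agt, Akr1e1, Slc1a2, Nr0b2 and Dalrd3 (r of 0.88, 0.87, 0.84, 0.84 and 0.84). Nr0b2, the bile acid-induced repressor SHP, had means of 1.59 in NZO, 2.55 in DBA, 0.69 in C3H, 2.43 in B6 and 2.21 in 129/Ola. For Epcam, mostly not above background, they were Prcc, Papss2, Cebpb, Klf9 and H2-DMb1 with r of 0.74 to 0.76. These likenesses compare 5 strain means for the most part.

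A wider set of cholangiocyte genes was counted too. Of 32 genes listed 27 were tested, and 2 were higher and 4 lower in NZO against B6, 3 higher and 5 lower in DBA against B6, 3 higher and 2 lower in NZO against DBA, and 4 higher and 6 lower in C3H against 129/Ola. The called shares, 22.2%, 29.6%, 18.5% and 37.0%, stand beside 18.3%, 15.3%, 18.0% and 37.9% of all genes, so NZO against B6, NZO against DBA and C3H lie near the share of all genes. Of those called in NZO against B6, Cdh1, the epithelial cadherin, fell by 1.00 ± 0.12 (adjusted p = 1.34e-05), Slc10a2, the apical bile acid transporter of duct cells, by 0.82 ± 0.22, and Bicc1, an RNA-binding protein of cystic disease, by 0.63 ± 0.10. Itga6, a laminin receptor subunit, was 1.50 ± 0.18 higher. In DBA against B6, Krt23, a keratin of duct and stressed liver cells, fell by 1.86 ± 0.52 (adjusted p = 0.0183), Cd24a, a surface glycoprotein of progenitors, by 1.43 ± 0.18, and Gpbar1, the bile acid receptor TGR5, by 1.31 ± 0.24. Itga6 was 1.18 ± 0.18 higher there.

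In C3H against 129/Ola, Krt23 fell by 3.79 ± 0.52 and Aqp4, a water channel of duct cells, was 2.77 ± 0.28 higher. Ncam1, a neural adhesion molecule of reactive ductules, was 1.38 ± 0.31 higher, and Gpbar1 was 1.06 ± 0.24 higher. In NZO against DBA, Onecut1, the factor HNF6 of duct and hepatocyte fate, was 2.91 ± 0.87 higher (adjusted p = 0.0265), and Slc10a2 fell by 1.09 ± 0.22. The median of the 27 genes was -0.14, -0.18, 0.03 and 0.02 in the 4 comparisons, in the order NZO against B6, DBA against B6, NZO against DBA and C3H against 129/Ola. Cldn6, Ggt1, Muc1 and Elf3 were among those too dim to test.

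Genes of the primary cilium and of cystic disease, the group of Pkhd1, were lower in 3 and higher in 1 of 12 tested in NZO against B6. They were lower in 2 and higher in 0 in DBA against B6, higher in 2 and lower in 0 in NZO against DBA, and lower in 5 and higher in 1 in C3H against 129/Ola. The called shares of the 12 were 33.3%, 16.7%, 16.7% and 50%, beside 18.3%, 15.3%, 18.0% and 37.9% of all genes. Pkd2, the calcium channel polycystin-2, fell by 1.66 ± 0.12 in C3H against 129/Ola, where Pkhd1 was also low, by 0.64 ± 0.12 in DBA and by 0.42 ± 0.12 in NZO against B6. Invs, the gene of inversin, was 1.13 ± 0.11 higher in NZO than in B6. The median of the 12 was -0.05, -0.07, 0.04 and -0.22 in the 4 comparisons. Glis3 and Dzip1l were not tested.

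Notch and Yap genes, which direct duct fate, held 5 lower and 0 higher of 17 tested in C3H against 129/Ola, or 29.4%, where 22.6% of all genes were lower and 37.9% called either way. Tead2, a DNA-binding partner of Yap, fell by 2.72 ± 0.19, Notch1, a receptor, by 1.25 ± 0.27, Yap1 itself by 0.46 ± 0.11, and Rbpj, the DNA-binding partner of Notch, by 0.43 ± 0.11. In NZO against B6, 2 were higher and 2 lower: Notch1 was 1.05 ± 0.27 and Tead2 1.11 ± 0.19 higher, while Hey1, a Notch target, fell by 1.09 ± 0.24 and Ccn1, a Yap target, by 2.15 ± 0.35. In DBA against B6, Notch1 was 1.33 ± 0.27 higher, Ccn1 was higher as well, and none of the 17 was lower. In NZO against DBA, 2 were higher and 2 lower, and Ccn1 fell by 3.25 ± 0.35. The called shares were 23.5% in NZO against B6, 11.8% for DBA relative to B6 and 23.5% for NZO relative to DBA, beside 18.3%, 15.3% and 18.0% of all genes. The median of the 17 was -0.43 in C3H against 129/Ola and -0.14, 0.00 and -0.15 in the other comparisons. Jag2, Tead4 and Ankrd1 were not tested.

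Tff3 was set beside genes of the mucous epithelia it is known from. Of 25 listed secretory, goblet and mucosal genes 10 were tested, 1 was higher in NZO (Fcgbp) and 1 in DBA (Pigr) against B6, none was called in NZO against DBA, and 4 were lower in C3H against 129/Ola. The called shares were 10%, 10%, 0% and 40%, beside 18.3%, 15.3%, 18.0% and 37.9% of all genes. Those 4 were Tff2, Fcgbp, a mucus protein that binds antibody (-1.49 ± 0.45), Pigr, the receptor that carries antibody into bile (-0.69 ± 0.17), and St6galnac1, a mucin sialyltransferase (-0.59 ± 0.22). The median of the 10 was -0.58 in C3H against 129/Ola and -0.01 to 0.12 in the other comparisons. The gel-forming mucin Muc2 and the goblet gene Agr2 were too dim to test. The mean level of the 10 genes per mouse was -0.22 to 0.29 in NZO, -0.18 to 0.23 in DBA, -0.66 to -0.19 in C3H, -0.24 to 0.11 in B6 and -0.30 to 0.11 in 129/Ola.

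Genes of gut and pancreas were set beside Tff3 as well. Of 11 intestinal genes 2 were bright enough to test and none passed in the 4 comparisons, with Cdx1, Cdx2, Vil1, Sis and Alpi not among them. Of 17 pancreas genes 7 were tested, and Cela2a, an elastase, fell by 1.89 ± 0.54 in NZO and by 2.83 ± 0.54 in DBA against B6 and by 3.26 ± 0.54 in C3H against 129/Ola. It was the gene called in NZO and in DBA against B6, Cela1, a related elastase, fell by 1.09 ± 0.21 in NZO against DBA, and 2 were higher and 2 lower in C3H against 129/Ola. That is 1 of 7 (14.3%) in each of the first 3 and 57.1% in C3H, beside 18.3%, 15.3%, 18.0% and 37.9% of all genes. The mean level of the 7 was -1.24 to -0.79 in NZO, -1.46 to -0.87 in DBA, -0.92 to -0.68 in C3H, -1.20 to -0.94 in B6 and -0.80 to -0.66 in 129/Ola. Cpa1, Pnlip and Prss2 were too dim to test. Hepatocyte genes counted 2 higher and 0 lower of 16 in NZO against B6, 1 higher and 0 lower in DBA against B6, 1 higher and 1 lower in NZO against DBA, and 2 higher and 2 lower in C3H against 129/Ola, all below the shares of all genes.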

How the data were processed

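Liver RNA of 20 male mice, 4 from each of 5 strains, was measured on Agilent 1-colour mouse arrays, 1 array per mouse. The deposited intensity values are spot signals that Agilent Feature Extraction had background-subtracted and detrended, with no normalization between arrays, per the file headers. The headers name an older software version for NZO, DBA and B6 and a newer one for C3H and 129/Ola, while the submitters' processing notes name Feature Extraction 9.1. The deposited spot flags (other values, per the file headers) gave which spots were well above background, saturated or outliers. A deposited table of values for the series is linear, with the same sorted values in every column. Its making is not given in the sources used here, and it served as an alternative.

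Outlier spots were left out, spots of 1 probe averaged, and 55642 of 55681 non-control probes kept. Levels are log2 of the processed signal minus the 75th percentile of the array. A probe was tested where some strain had it well above background in each of its 4 mice, which held for 28432 probes. The brightest tested probe stood for its gene, 20622 genes. Gene symbols are those of the array files, updated by RefSeq accession for 28051 of 29796 probes that carry one. Every strain comparison came from 1 limma fit (3.58.1, R 4.3.3; lmFit and eBayes) over all 20 arrays, with Benjamini-Hochberg adjustment over all genes and a threshold of 0.05. Any adjusted p not named otherwise is limma's. Differences of Tff3 from each marker and correlations within strains were tested by permutation in Python 3.11.15 (numpy 2.4.6, pandas 2.3.3, scipy 1.17.1). The scripts were tested on simulated data. The number of arrays limits the precision, and the spread is that between mice, for which the labels do not say whether they were littermates.

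Named were the 9 genes, Tff1 and Tff2, and of each gene list up to the 4 genes with the largest called differences per comparison. Also named were the 5 genes most like Tff3, Epcam and Sox9 in level, with the 9 genes left out of that ranking. Genes given as too dim to test were named after their values were seen. The members and lists were chosen with earlier results of these data known. Alternatives changed the background correction (normexp, offset 50), the scaling (quantile, another percentile, the authors' table), the filter, the probe, the blocks (scan day, slide, animal number) and the mice and arrays in the fit.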

Additional observations from a re-analysis of the deposited data

Results flagged for a closer look

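In 4 of 60 groups of 4 mice, 1 mouse lay far from the other 3 of its strain, where chance alone flags about 1 group in 20. The further Cftr probe read -1.23 in DBA 15, where the remaining DBA mice lay at -6.12 to -6.02. This was its only value well above background. Epcam read -5.74 in NZO 11, against -4.57 to -4.34 in the other NZO mice. Krt7, the duct keratin, read -4.81 in the same NZO mouse, against -3.41 to -3.27 in the others. The dim Prom1 probe, which no array read well above background, gave -4.88 in DBA 9, against -6.01 to -5.84 in the other DBA mice.

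The difference of susceptible from resistant strains was not the same in both array series for 5 of 8 tested genes, against 31.3% of all genes (limma). The mean of NZO and DBA minus B6, less C3H minus 129/Ola, was -10.8 for Tff3, -0.73 for Prom1, -0.78 for Spp1, 1.68 for Cftr and 2.24 for Pkhd1. Cftr was not well above background in C3H or 129/Ola, so its value largely restates NZO and DBA against B6. The Pkhd1 value rests on its main probe, and the second probe did not show the low level in C3H. Array series and strain cannot be told apart here.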

How the results depend on the processing

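Tff3 kept its direction in all 4 comparisons under each alternative run, at -5.15 to -4.55 in NZO against B6, -2.54 to -1.65 in DBA against B6, -3.04 to -2.31 in NZO against DBA and 5.95 to 7.73 in C3H against 129/Ola. It kept its call except with the animal number as a block, where DBA against B6 gave -2.44 (adjusted p = 0.132) and NZO against DBA -2.56 (adjusted p = 0.127). Same-numbered mice of different strains mostly did not deviate together (13 pairs, r of -0.34 to 0.38, 2 over 0.1). The highest r was that of NZO 9 and DBA 9, which shared a slide. Whether the numbers pair mice was not tested. The block of animal numbers leaves 5 residual degrees of freedom in place of 15.

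Higher duct markers in NZO against B6 numbered 0 in place of 1 with the animal number as a block, with the percentile over other probes, without the filter and on the arrays read with the older software alone, and 0 to 1 when 1 mouse was left out. In DBA against B6 they numbered 0 under normexp, with the block of animal numbers and on those arrays alone. Lower duct markers numbered 0 in NZO against DBA with scan day as a block, and 1 in C3H against 129/Ola with the animal number as a block. The other Pkhd1 probe gave 0.50 in C3H against 129/Ola. With the animal number as a block 1276, 1334, 1332 and 1534 genes were called, against 3771, 3165, 3718 and 7821, and in C3H against 129/Ola 4832 were called under normexp and 2936 with the slide as a block. Beyond the fewer degrees of freedom and the fewer arrays, the cause was not tested. Scan day could not be fitted for C3H against 129/Ola, each scanned on 1 day. Krt7, Epcam and Cftr lay near or below background on many arrays, which limits what their differences can show.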

Other observations

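Cells around the duct and in the sinusoid were measured as well. Of 17 tested genes of stellate cells and portal fibroblasts, 0 were higher and 6 lower in NZO against B6, 1 higher and 7 lower in DBA against B6, 3 higher and 5 lower in NZO against DBA, and 5 higher and 2 lower in C3H against 129/Ola. These are 35.3%, 47.1%, 47.1% and 41.2% of the 17, beside 18.3%, 15.3%, 18.0% and 37.9% of all genes. Pdgfrb, the growth factor receptor of these cells, fell by 0.98 ± 0.10 in NZO against B6, Col1a1, the main fibrillar collagen, fell by 1.58 ± 0.28 in DBA against B6, and Fbln2, a matrix protein of portal fibroblasts, fell by 2.00 ± 0.16 in C3H against 129/Ola (SE, n = 4 per strain, limma). Of 8 tested neutrophil genes, 3 were higher and 0 lower in NZO against B6, 0 higher and 1 lower in DBA against B6, 4 higher and 0 lower in NZO against DBA, and 1 higher and 0 lower in C3H against 129/Ola. Of all genes 9.72%, 7.27%, 9.76% and 15.4% were higher and 8.57%, 8.08%, 8.27% and 22.6% lower. Camp, an antimicrobial peptide of neutrophil granules, was 1.87 ± 0.42 higher and Ly6g, the surface marker of mouse neutrophils, 1.68 ± 0.16 higher in NZO than in B6. Of 10 sinusoidal endothelial genes, 1 was higher and 0 lower in NZO and 1 higher and 3 lower in DBA against B6, 3 higher and 0 lower in NZO against DBA, and 2 higher and 6 lower in C3H against 129/Ola, or 10%, 40%, 30% and 80%, beside 18.3%, 15.3%, 18.0% and 37.9% of all genes. Of 4 tested mesothelial genes, 1 (25%) was lower in C3H against 129/Ola, against 22.6% of all genes, and none was called in the other 3 comparisons.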
